A study of Homo sapiens with 8 samples.

Results

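Gene expression in NCI-H1299 (H1299), an established human line labelled as lung adenocarcinoma, was set between 2 arrays of cells with hairpins against PTK7 and 2 arrays of cells with control hairpins. These samples were chosen by the cell line and the hairpin in their titles, and they are 4 of the 8 arrays of the series. The other 4 carry the same hairpins in a second line labelled as lung adenocarcinoma, NCI-H2009 (H2009). The control arrays carry short hairpin RNAs against GFP and luciferase (LUC), reporter genes that human cells lack, and the PTK7 arrays carry 2 different hairpins against PTK7, here PTK7-1 and PTK7-2. Control and PTK7 cells alike were grown in RPMI with serum, infected for 2 days with lentivirus made in 293FT cells and then kept in puromycin for 2 days, with RNA taken at day 4. Each hairpin has 1 array in H1299, of a selected population rather than a clone, so a group of 2 arrays is a group of 2 hairpins. Nothing in the labels says that cultures were repeated. The p-values measure only the spread between arrays of a group, which carry different hairpins. Differences between hairpins, between cultures and between technical steps are mixed in that spread.

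PTK7 is a single-pass membrane protein of the receptor tyrosine kinase family whose kinase domain has no catalytic activity. It works with Frizzled and ROR receptors in planar cell polarity, the signalling that orients cells in a sheet and guides collective movement, and it also modulates canonical Wnt signalling through beta-catenin. A short hairpin RNA is cut by DICER1 and loaded onto Argonaute proteins, which cleave or repress transcripts that pair with it, and hairpins against the same gene have different further partners. The question asked of H1299 was which genes lie at a different level when PTK7 is targeted, and whether both hairpins give that level.

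Values are log2 signals after RMA, which normalizes between arrays, and a difference of 1 on this scale is a 2-fold change. Each of 18404 genes was read by its brightest probe set that has a single gene symbol, and the median gene lay at 6.30 in H1299. Array medians in H1299 ran from 5.31 to 5.41 over all probe sets. The 2 control arrays correlated at r = 0.992 and the 2 PTK7 arrays at r = 0.981 across genes, which are not independent replicates. Of 8 epithelial markers, EPCAM (3.32 to 3.58 over the 4 H1299 arrays), CDH1 (3.92 to 4.19), KRT19 (5.27 to 5.66), KRT7 (4.89 to 5.52) and ESRP2 (4.73 to 4.85) lay below every H2009 array and below the median gene. KRT8 (8.68 to 10.38) and KRT18 (10.56 to 11.61) were well above it. VIM, the mesenchymal intermediate filament, read 11.33 to 11.57, and CDH2 (9.08 to 9.51) and ZEB1 (8.38 to 8.79) lay above every H2009 array as it did, while FN1 (6.30 to 6.97) and SNAI2 (4.58 to 5.80) lay below every H2009 array. The lung lineage factor NKX2-1 read 4.96 to 5.64. Most defining epithelial and lung markers of the labelled tumour type are thus at a low signal in H1299. Markers of leukocytes (summed log2 level of 9 genes 43.68 to 44.65 over the arrays), endothelium (7 genes, 26.69 to 28.35) and fibroblasts (8 genes, 32.05 to 33.19) had nearly equal sums in control and PTK7 arrays. Among them PTPRC stayed between 2.78 and 2.99, PECAM1 between 3.26 and 3.61 and DCN between 2.90 and 3.07, which is close to the lowest signals of the arrays, while CD68, a lysosomal protein abundant in macrophages, read 9.59 to 10.48, and KDR was 3.70 and 3.67 in the GFP and LUC arrays and 4.10 and 4.73 in the PTK7-1 and PTK7-2 arrays.

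PTK7, on chromosome 6 and read by 1 probe set (8119689), was at 5.73 and 6.03 in the GFP and LUC arrays and at 5.63 and 5.53 in the PTK7-1 and PTK7-2 arrays. Both PTK7 arrays lay below both control arrays, and the nearest pair, PTK7-1 and GFP, was 0.11 apart. The difference was -0.30 ± 0.17 (limma adjusted p = 0.804), or 81.0% of the control signal, and an exact two-sided permutation test of the 4 arrays gave p = 0.333, the smallest value that 6 arrangements allow. With 2 arrays a group this check of the hairpins is weak: GFP and LUC themselves differed by -0.30 (GFP minus LUC). Leaving out the LUC array reduced the difference to -0.15, and leaving out GFP made it -0.45. PTK7 lay below the median gene in all 4 arrays, and under control hairpins it was -0.87 ± 0.17 relative to H2009 (limma adjusted p = 0.00923). The same hairpins gave a PTK7 difference of -0.96 in H2009, against -0.30 in H1299, and both PTK7 arrays lay below both controls there. Since these are bulk samples, fewer cells with a transcript and less RNA per cell cannot be told apart, here or in any result that follows.

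Over all genes, 1 of 18404 passed the threshold of an adjusted p under 0.05 (0.00543%; limma, fitted over all 8 arrays). That gene is OR7E19P, and it rose. The count was 4 with the hairpin as a block, 8 without the PTK7-1 array, 2 without the PTK7-2 array, and 0 without any other array. At an unadjusted p under 0.05, 763 genes were higher (4.15%) and 613 lower (3.33%) with PTK7 hairpins. Both PTK7 arrays lay above both control arrays for 2864 genes (15.6%) and below both for 2962 (16.1%). These shares are the background for every count of non-overlapping members given here. For counts of members higher or lower in H1299, the background is 9095 genes higher and 9298 lower with PTK7 hairpins. With both PTK7 arrays at least 2-fold from the control mean and beyond both control arrays, 21 genes were higher (0.114%) and 12 lower (0.0652%).

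**Figure D1:**
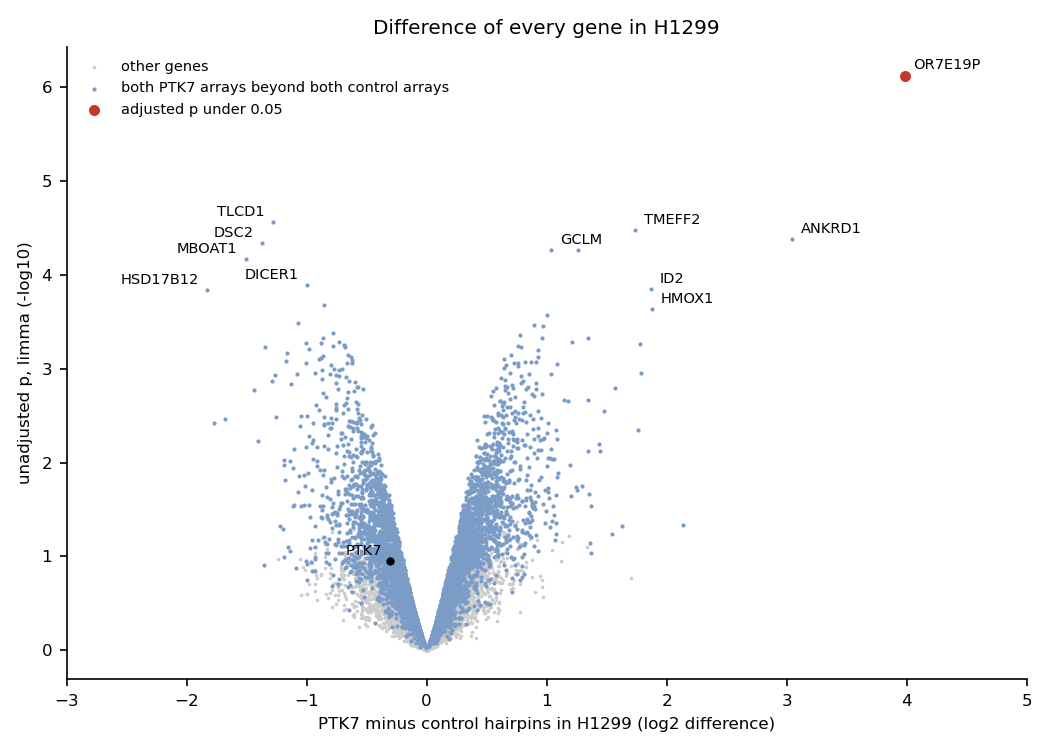
Each point is 1 of 18404 genes, with the log2 difference between PTK7 and control hairpins in H1299 on the x axis and the unadjusted limma p on a -log10 y axis. Blue points have both PTK7 arrays beyond both control arrays, the red point is OR7E19P at 3.99, and the black point is PTK7 at -0.30.

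OR7E19P, an olfactory receptor pseudogene on chromosome 19, stood at 4.76 and 4.46 in the GFP and LUC arrays and at 8.24 and 8.95 in the PTK7-1 and PTK7-2 arrays. The control arrays were below the median gene and both PTK7 arrays well above it, with no overlap. The difference of 3.99 ± 0.25 is 15.9-fold (limma adjusted p = 0.0140), and in H2009 the same difference was -0.09 ± 0.25. The call was lost with cyclic loess normalization (adjusted p = 0.0554), with the H1299 arrays fitted alone (0.558), without the GFP array (0.227) or the LUC array (0.196) of H1299, and without any 1 of the H2009 arrays (0.0796 to 0.0903), while the difference stayed between 3.63 and 4.34 under every alternative run. Of the other measured members of family 7E, OR7E18P was at 2.62 and 2.69 under the control hairpins and at 2.99 and 3.02 under the PTK7 hairpins, and OR7E24, OR7E91P and OR7E13P differed by -0.08 to 0.10. Members of this family are near-identical in places, and the signal of 1 probe set cannot be assigned to 1 copy.

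ANKRD1, which encodes a cardiac and muscle ankyrin repeat protein and is a standard target of the coactivators YAP and TAZ, was at 7.70 and 8.73 with GFP and LUC and at 11.50 and 11.02 with PTK7-1 and PTK7-2. The dimmer PTK7 array exceeded the brighter control by more than 2 units. The difference of 3.05 ± 0.34 did not pass the threshold (limma adjusted p = 0.144) unless the fit blocked on the hairpin (limma adjusted p = 0.0423). The blocked fit takes the spread between hairpins that both lines share out of the error. Its p-values, here and below, do not count that spread. HMOX1, the enzyme that breaks down haem, was at 7.50 and 8.12 under the control hairpins and 10.05 and 9.33 under PTK7-1 and PTK7-2. ID2, an inhibitor of helix-loop-helix transcription factors, was at 5.004 and 4.45 and 6.67 and 6.52 in the same order. Their differences were 1.88 ± 0.28 and 1.87 ± 0.25. In both, each PTK7 array lay more than 1 unit above each control array.

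TMEFF2, a membrane protein with follistatin and EGF modules, was close to the lowest signals under control hairpins (3.93 and 3.75) and reached 5.32 and 5.85 with PTK7-1 and PTK7-2. GCLM, the modifier subunit of the enzyme that starts glutathione synthesis, was at 7.23 and 7.14 against 8.14 and 8.31. SERTAD1, a nuclear protein that binds CDK4, was at 6.83 and 6.83 against 8.15 and 8.02. For GCLM and SERTAD1 the controls differed by under 0.1, and the PTK7 arrays by under 0.2. ADM, which encodes the vasodilator peptide adrenomedullin, was at 7.35 and 7.30 against 9.62 and 8.59, so PTK7-1 stood above PTK7-2. GADD45B, a stress-induced scaffold, was at 7.24 and 7.14 against 8.08 and 8.72, with the hairpins in the reverse order. PTCH1, the Hedgehog receptor and itself a Hedgehog target, was at 7.91 and 8.17 against 9.15 and 8.93. The remaining genes of this set of 15, ranked by unadjusted p, are RND3 (0.97 ± 0.15), GPRC5A, an orphan receptor abundant in lung (0.90 ± 0.14), APLP1, a relative of the amyloid precursor protein (0.78 ± 0.13), PLEKHA3, a Golgi lipid-binding protein (0.96 ± 0.16), and the zinc finger gene ZNF714 (1.34 ± 0.22). Their limma adjusted p-values other than that of OR7E19P ran from 0.144 to 0.294. In a fit with 1 PTK7 array left out, the lone PTK7 array is assumed to vary like the other groups, so only sizes are given here. They were 2.01 for TMEFF2 and 1.53 for GADD45B without PTK7-1, and 2.30 for ADM without PTK7-2. SERPINB7, a serine protease inhibitor among the 5 largest differences, shows the effect of 1 control array. It was at 6.63 and 3.98 with GFP and LUC and 6.97 and 7.93 with PTK7-1 and PTK7-2, so that GFP lay close to the PTK7 arrays, and its difference was 2.14 ± 0.89.

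Among genes lower with PTK7 hairpins, HSD17B12 had the largest difference. It encodes the ketoreductase of long-chain fatty acid elongation and was at 9.71 and 9.88 with GFP and LUC and at 7.70 and 8.23 with PTK7-1 and PTK7-2 (-1.83 ± 0.25, limma adjusted p = 0.246, or 0.0332 when blocked on the hairpin). MBOAT1, an acyltransferase that remodels lysophospholipids, was at 8.86 and 8.99 against 7.43 and 7.40, and its PTK7 arrays were within 0.1 of each other. DSC2, a desmosomal cadherin, was at 7.42 and 7.72 against 6.32 and 6.08. TLCD1, a plasma membrane protein that affects phospholipid composition, was at 7.90 and 7.88 against 6.71 and 6.51 and had the smallest unadjusted p of any lower gene (-1.28 ± 0.13, limma adjusted p = 0.144). For each of these 4 genes the gap between the groups was wider than the spread within either.

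DICER1, the enzyme that cuts microRNA precursors and hairpins, was at 10.51 and 10.58 with GFP and LUC and 9.44 and 9.66 with PTK7-1 and PTK7-2. PIK3CB, a catalytic subunit of PI3-kinase, was at 9.41 and 9.78 against 8.37 and 8.14. PHGDH, the first enzyme of serine synthesis, was at 10.30 and 10.01 against 8.97 and 9.33. In all 3 the PTK7 arrays lay below the controls by more than the spread of either pair. SMPD2, a neutral sphingomyelinase, differed by -1.07 ± 0.17, SLC7A1, the arginine and lysine transporter, by -0.86 ± 0.14, and STK39, a kinase that regulates ion cotransporters, by -0.88 ± 0.15. PCGF6, a Polycomb group protein (-0.86 ± 0.12), PAIP1, which binds the poly(A)-binding protein (-0.73 ± 0.12), PASD1, a cancer-testis antigen (-0.78 ± 0.13), COIL, the scaffold of Cajal bodies (-0.78 ± 0.13), and PIGP, of the GPI anchor pathway (-0.69 ± 0.12), complete the 15. Their limma adjusted p-values ran from 0.144 to 0.294. STYX, a phosphatase relative without activity, was at 9.36 and 9.84 against 8.42 and 7.42 and passed only when blocked on the hairpin (limma adjusted p = 0.0484; 0.364 without it). LONRF1, a RING finger protein, was at 7.87 and 8.90 against 7.13 and 6.10, so its control arrays were themselves over 1 unit apart. The small nucleolar RNA SNORD15A was at 7.49 and 7.52 against 6.58 and 5.56, lowest with PTK7-2. Its difference was -1.43 ± 0.29, and it was -1.95 with the PTK7-1 array left out, which rests on PTK7-2 alone.

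**Figure D2:**
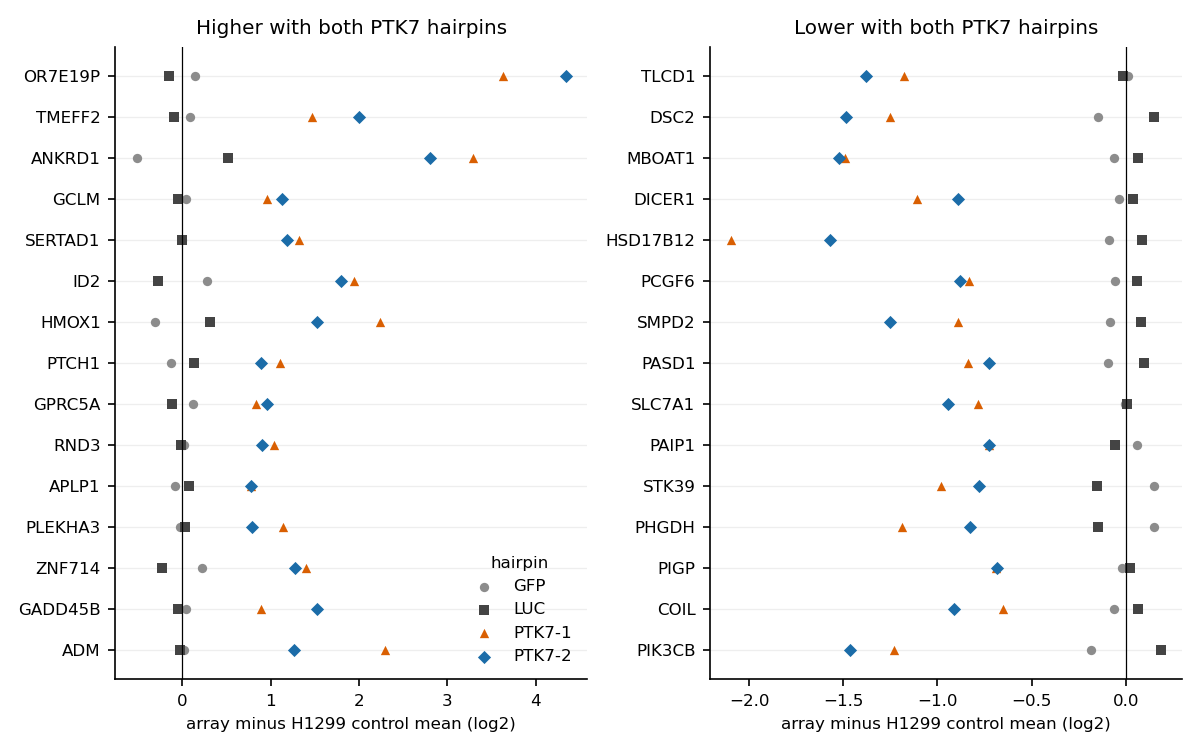
Each row is 1 of the 15 genes higher (left) or lower (right) with the smallest unadjusted p among genes whose arrays do not overlap, and each symbol is 1 H1299 array, as its log2 distance from the mean of the 2 control arrays. The PTK7-1 and PTK7-2 symbols lie on the same side of both controls in every row because the rows were chosen that way, and they are farthest apart in ADM, with PTK7-1 higher.

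YAP and TAZ are coactivators restrained by the Hippo kinases that bind TEAD factors on DNA and switch on genes of matrix, growth and cytoskeletal tension. Of 25 measured targets, 21 were higher and 4 lower with PTK7 hairpins, and both PTK7 arrays exceeded both controls for 14 and lay below both for 2. None passed the adjusted threshold (limma), and 8 were higher at an unadjusted p under 0.05. The median difference was 0.29, against -0.0026 over all genes, and it was 0.27 with PTK7-1 and 0.28 with PTK7-2. In H2009 the median of the same targets was -0.04, with 12 higher and 13 lower.

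CCN2, the secreted connective tissue growth factor, was at 10.28 and 10.33 with GFP and LUC and 11.19 and 10.79 with PTK7-1 and PTK7-2. AMOTL2, an angiomotin that binds YAP, was at 8.03 and 8.24 against 8.67 and 9.25. TGFB2, a ligand of the TGF-beta receptors, was at 6.17 and 7.22 against 7.82 and 7.50. No array of these 3 genes crossed into the other group. FJX1, the homologue of a fly planar polarity regulator, differed by 0.77 ± 0.18, GADD45A by 0.77 ± 0.24 and AJUBA, a LIM protein that inhibits LATS kinases, by 0.80 ± 0.28. The receptor AXL went the other way with 1 hairpin, at 11.10 and 11.23 in GFP and LUC and 11.16 and 9.68 in PTK7-1 and PTK7-2. CCN1 was at 10.51 and 10.56 against 11.0032 and 10.33, above both controls with PTK7-1 only. FSTL1 (8.61 and 8.16 against 7.48 and 9.32), NT5E (10.52 and 9.54 against 9.71 and 11.19) and ASAP1 (10.42 and 8.92 against 9.39 and 10.53) were above the control mean with PTK7-2 alone. IGFBP3 (5.88 and 6.02 against 7.29 and 5.86) was above it with PTK7-1 alone. The 2 targets below both controls were AMOTL1 and PTPN14. Of the Hippo pathway itself, 17 members were measured, 11 higher and 6 lower, with a median of 0.16. YAP1 differed by 0.13 ± 0.13 and WWTR1, which encodes TAZ, by 0.24 ± 0.14. Both PTK7 arrays lay above both controls for WWTR1 and overlapped them for YAP1. NF2, the upstream activator merlin, differed by 0.58 ± 0.27, the LATS cofactor MOB1B by -0.68 ± 0.12 and VGLL4, a competitor of YAP for TEAD, by -0.58 ± 0.28.

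The promoters of ANKRD1, CCN2 and TGFB2 are shown because these targets were higher with both PTK7 hairpins and their windows hold the letters GGAATG that TEAD factors bind. Windows run from 250 bases before to 50 after the start of the gene, from RefSeq on GRCh38.p14, and capitals mark each match of GGAATG or, where it lies on the other strand, CATTCC. ANKRD1 is on the minus strand at chr10:90921038-90921337, CCN2 on the minus strand at chr6:131951323-131951622 and TGFB2 on the plus strand at chr1:218345086-218345385.
ANKRD1: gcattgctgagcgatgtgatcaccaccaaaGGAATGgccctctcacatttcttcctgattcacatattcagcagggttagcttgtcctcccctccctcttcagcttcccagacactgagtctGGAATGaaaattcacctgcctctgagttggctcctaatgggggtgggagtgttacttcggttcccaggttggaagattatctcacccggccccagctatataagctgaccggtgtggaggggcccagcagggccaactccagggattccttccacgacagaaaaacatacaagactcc
CCN2: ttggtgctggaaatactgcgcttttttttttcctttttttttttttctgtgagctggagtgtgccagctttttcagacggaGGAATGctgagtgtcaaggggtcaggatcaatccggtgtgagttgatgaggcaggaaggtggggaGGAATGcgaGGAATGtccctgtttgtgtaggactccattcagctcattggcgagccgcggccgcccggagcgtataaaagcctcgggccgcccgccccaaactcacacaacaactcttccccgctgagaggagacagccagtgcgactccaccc
TGFB2: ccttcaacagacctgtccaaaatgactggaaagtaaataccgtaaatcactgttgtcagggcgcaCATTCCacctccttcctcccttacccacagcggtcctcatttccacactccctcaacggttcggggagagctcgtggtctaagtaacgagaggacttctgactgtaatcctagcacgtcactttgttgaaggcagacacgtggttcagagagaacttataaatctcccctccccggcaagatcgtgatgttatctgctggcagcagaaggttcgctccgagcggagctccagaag
The matches begin 220 and 128 bases before the start in ANKRD1, 169, 104 and 95 before it in CCN2 and 185 before it in TGFB2. Over all 35116 windows of the table, 14.0% hold GGAATG on either strand. Of the YAP and TAZ targets measured, 18 have a window in it, with 21 windows in all, and 10 of these hold the motif (47.6%), 1 for each of 10 genes. Among the 10 genes with a window whose PTK7 arrays exceeded both controls, 8 have the motif, but AXL and PTPN14, which do not belong to them, have it too. A match describes the letters and shows neither binding nor a cause.

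NRF2 is a transcription factor released from KEAP1 by electrophiles and oxidants, and its targets make glutathione and NADPH and clear haem and quinones. Of 22 measured targets, 17 were higher and 5 lower, 11 had both PTK7 arrays above both controls and 0 had both below. At an unadjusted p under 0.05 there were 8, all higher, and none passed the adjusted threshold (limma). The list median was 0.16, at 0.33 with PTK7-1 and 0.09 with PTK7-2, so it was larger in the PTK7-1 array. In H2009 the median was 0.01.

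Besides HMOX1 and GCLM, TXNRD1, the cytosolic thioredoxin reductase, was at 9.73 and 9.06 with GFP and LUC and 10.07 and 10.03 with PTK7-1 and PTK7-2. OSGIN1, an oxidative stress response gene, was at 6.25 and 6.57 against 7.30 and 7.10. GCLC, the catalytic partner of GCLM, was at 8.57 and 8.60 against 9.08 and 8.99. None of these 3 overlapped between the groups. FTL, the ferritin light chain, differed by 0.59 ± 0.17 and GSR, glutathione reductase, by 0.50 ± 0.20. NQO1, often used as the readout of NRF2, was at 10.60 and 9.81 against 10.80 and 10.05, higher with PTK7-1 alone. SRXN1 (8.92 and 8.85 against 9.39 and 8.60) and ME1 (7.61 and 7.84 against 8.24 and 6.88) were likewise above the control mean with PTK7-1 and below it with PTK7-2. The cystine transporter SLC7A11 differed by -0.02 ± 0.21.

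The promoters of GCLM and TXNRD1 are printed since both genes were higher with each PTK7 hairpin and their windows match TGACNNNGC, the core of the antioxidant response element that NRF2 binds. GCLM lies on the minus strand at chr1:93909381-93909680 and the TXNRD1 window shown on the plus strand at chr12:104215529-104215828, on GRCh38.p14, with matches on either strand in capitals.
GCLM: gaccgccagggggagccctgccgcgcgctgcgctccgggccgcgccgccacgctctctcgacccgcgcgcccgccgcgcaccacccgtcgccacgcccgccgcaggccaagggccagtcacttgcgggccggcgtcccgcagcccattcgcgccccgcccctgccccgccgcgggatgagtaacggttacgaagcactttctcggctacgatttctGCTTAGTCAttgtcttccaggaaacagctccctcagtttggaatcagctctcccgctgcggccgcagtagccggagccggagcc
TXNRD1: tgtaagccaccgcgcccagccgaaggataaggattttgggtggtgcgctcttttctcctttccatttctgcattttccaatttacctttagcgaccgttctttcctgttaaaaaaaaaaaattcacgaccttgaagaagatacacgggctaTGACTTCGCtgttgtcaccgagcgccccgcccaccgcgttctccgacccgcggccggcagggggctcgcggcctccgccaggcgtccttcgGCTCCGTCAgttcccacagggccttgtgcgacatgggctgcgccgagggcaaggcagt
The match begins 34 bases before the start in GCLM, and the matches in TXNRD1 begin 99 and 8 bases before it. Another TXNRD1 window of the table, not printed, holds a match that begins 102 bases before its own start. Of all windows, 13.3% hold this motif. Of the NRF2 targets, 16 genes have a window, and 6 of their 19 windows hold it (31.6%), from 5 genes. Among the 7 genes with a window whose PTK7 arrays exceeded both controls, GCLM and TXNRD1 have it, and PGD, ME1 and CYP4F11, whose arrays overlapped, have it as well.

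TGF-beta and BMP ligands signal through SMAD proteins, and the ID genes are direct BMP targets. Of 25 measured members, 18 were higher and 7 lower, 8 had both PTK7 arrays above both controls and 1 below, and the median was 0.18. ID1 was at 7.37 and 7.02 with GFP and LUC and 7.82 and 8.16 with PTK7-1 and PTK7-2. ID3 was at 6.54 and 5.60 against 6.49 and 7.17. BMP4, a ligand, was at 5.73 and 5.47 against 6.16 and 6.68. ID1 and BMP4 were higher in both PTK7 arrays, and ID3 overlapped the controls. SMAD1, which carries the BMP signal to the nucleus, was the member that lay below both controls, at 7.67 and 7.73 against 6.76 and 7.04. Its difference in H2009 was -1.0036 ± 0.15, whereas the ID2 difference there was -0.79 ± 0.25. Over the whole list the H2009 median was -0.20, with 6 members higher and 19 lower.

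Genes of hypoxia and glucose use were divided. Of 22 measured, 13 were higher and 9 lower, with 9 above and 3 below both controls and a median of 0.07. Besides ADM, the glucose carriers SLC2A1 (9.76 and 9.69 against 10.63 and 10.39) and SLC2A3 (9.39 and 9.11 against 9.996 and 10.37) and the fructose-2,6-bisphosphate regulator PFKFB3 (7.61 and 7.82 against 8.57 and 8.38) were higher in both PTK7 arrays. PDK1, which holds back pyruvate oxidation, was lower in both, at 8.20 and 8.38 against 7.88 and 7.21. The hypoxia targets VEGFA (-0.08 ± 0.21), NDRG1 (-0.03 ± 0.30) and BNIP3 (-0.03 ± 0.21) were near 0, and LDHA overlapped the controls (11.61 and 11.65 against 11.02 and 11.73).

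The unfolded protein and integrated stress responses were also divided, with 14 of 26 members higher and 12 lower, 6 above and 6 below both controls, and a median of 0.08. The 6 below both controls were ATF3, XBP1, CHAC1, SESN2, PSAT1 and PHGDH. PSAT1, the second enzyme of serine synthesis, was at 10.56 and 10.46 with GFP and LUC and 10.11 and 9.50 with PTK7-1 and PTK7-2. SESN2, a leucine sensor that restrains mTORC1, was at 9.08 and 8.64 against 7.62 and 8.48. CHAC1, which degrades glutathione, was at 9.08 and 8.91 against 8.54 and 8.12. ATF4, a transcription factor of the integrated stress response, differed by 0.05 ± 0.13. Among those above both controls were DDIT3, which encodes CHOP (0.71 ± 0.26), and the genes of endoplasmic reticulum degradation SEL1L (0.65 ± 0.12) and HERPUD1 (0.58 ± 0.16).

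Lipid genes were mostly lower. Of 22 measured genes of fatty acid and phospholipid synthesis, 15 were lower and 7 higher, 10 lay below and 4 above both controls, and the median was -0.21 (-0.12 with PTK7-1 and -0.24 with PTK7-2). Behind HSD17B12 and MBOAT1 came FASN, the fatty acid synthase, at 9.23 and 9.97 against 9.18 and 8.50, and LPCAT3, which puts polyunsaturated chains into phospholipids, at 10.83 and 10.61 against 10.33 and 10.06. Both had their lower value with PTK7-2. ACACA (-0.43 ± 0.18) and the regulator SREBF1 (-0.41 ± 0.13) lay below both controls too, and LPCAT1 (0.41 ± 0.12) and ABHD2 (0.62 ± 0.12) above both.

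For cholesterol synthesis the 2 hairpins parted. Of 17 measured genes, 14 were lower and 3 higher, 4 lay below both controls and 0 above, and the median was -0.26. It was 0.00 with PTK7-1 and -0.42 with PTK7-2, and the control arrays differed by -0.38 (GFP minus LUC) in the list median. FDPS, which makes farnesyl diphosphate, was low in both PTK7 arrays, at 8.56 and 8.91 with GFP and LUC and 7.73 and 8.0033 with PTK7-1 and PTK7-2. MSMO1, a sterol oxidase, was at 9.84 and 10.91 against 10.55 and 8.59, and SQLE, the squalene epoxidase, at 9.92 and 10.67 against 10.35 and 9.28. The last 2 genes were low with PTK7-2 alone and differed between the control arrays as well. HMGCS1 (8.88 and 10.37 against 9.98 and 8.81) followed the same order.

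Of 27 mitosis genes, 22 were higher and 5 lower, and 11 had both PTK7 arrays above both controls, against 0 below. The differences were small, with a median of 0.21 (0.20 with PTK7-1 and 0.30 with PTK7-2), and the list median differed by -0.16 between the control arrays (GFP minus LUC). The highest, that of MAD2L1, a spindle checkpoint protein, was 0.55 ± 0.14. KIF23, a kinesin of the midbody, was at 9.93 and 9.98 with GFP and LUC and 10.53 and 10.46 with PTK7-1 and PTK7-2, and PLK1, a mitotic kinase, at 10.55 and 10.80 against 10.94 and 11.03. Genes of DNA replication were divided, with 14 of 30 higher, 15 lower and a median of -0.02. Among them RRM2, a subunit of ribonucleotide reductase, was at 9.07 and 9.13 against 10.09 and 9.61, and MCM6, of the replicative helicase, at 8.98 and 9.20 against 8.42 and 8.60. In H2009 the mitosis median was -0.17, with 5 higher and 22 lower.

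Of the G1 regulators, 10 were higher and 12 lower among 22 measured, with 4 above and 2 below both controls and a median of -0.0067. CCND1, the cyclin that activates CDK4 and CDK6, was at 10.13 and 9.69 with GFP and LUC and 10.42 and 10.99 with PTK7-1 and PTK7-2, and CDK6 itself was at 9.70 and 10.01 against 9.28 and 8.59. CDKN1B, the inhibitor p27, was at 8.66 and 8.36 against 9.40 and 9.16, and RBL2, an RB relative, at 8.30 and 7.99 against 6.85 and 7.67. Each of these 4 genes separated the groups, but they were named by unadjusted p. The counts of the list are near or under the shares of all genes (15.6% and 16.1%).

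In the pathway of PTK7 itself, planar cell polarity and Wnt receptors, 18 of 32 genes were higher and 14 lower, with 6 above and 4 below both controls and a median of 0.05, which is close to all genes. PRICKLE1, a cytoplasmic polarity protein, was at 6.34 and 6.20 with GFP and LUC and 7.05 and 6.80 with PTK7-1 and PTK7-2. FZD2, a Frizzled receptor, was at 7.65 and 7.54 against 7.87 and 8.31. The Wnt5a receptor ROR1 was lower, at 6.84 and 7.27 against 6.72 and 6.13. VANGL1 was at 6.88 and 7.17 against 6.95 and 7.75, higher with PTK7-2 alone, and its partner VANGL2 differed by -0.13 ± 0.15. WNT5A differed by 0.09 ± 0.13 and MMP14, the protease that can cleave PTK7, by 0.15 ± 0.17.

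Of 15 canonical Wnt targets, 10 were higher and 5 lower, with a median of 0.06. DKK1, a secreted Wnt antagonist, was at 5.41 and 5.24 with GFP and LUC and 7.16 and 7.06 with PTK7-1 and PTK7-2, a difference of 1.79 ± 0.34 (limma adjusted p = 0.299), and its difference in H2009 was 1.75 ± 0.34. LEF1, a partner of beta-catenin on DNA, was lower in both PTK7 arrays, at 9.001 and 8.93 against 7.90 and 8.53. AXIN2, the feedback inhibitor most often read as a Wnt target, differed by 0.12 ± 0.13, MYC by -0.14 ± 0.23 and LGR5 by -0.07 ± 0.14.

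The small RNA machinery was read because every array carries a hairpin. Of 15 genes, 7 were higher and 8 lower, with 1 above and 6 below both controls and a median of -0.06. With DICER1, AGO1 was lower in both PTK7 arrays, at 9.71 and 9.52 with GFP and LUC and 9.36 and 8.40 with PTK7-1 and PTK7-2, as was XPO5, which exports microRNA precursors and hairpins (10.31 and 10.35 against 10.03 and 9.85). AGO2, the Argonaute that cleaves, differed by 0.06 ± 0.13, and DROSHA by 0.03 ± 0.15. DICER1 was also lower in H2009 (-0.65 ± 0.13), and so was AGO1 (-0.76 ± 0.34). Whether the amount of hairpin differed between arrays was not tested.

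Of 22 integrin and basement membrane genes, 15 were higher and 7 lower, 7 above and 1 below both controls, with a median of 0.07. ITGB5 (9.03 and 8.71 against 9.44 and 9.55) and LAMB3 (7.99 and 7.31 against 8.48 and 8.17) led them. Of 22 apoptosis regulators, 16 were higher and 6 lower, 6 above and 1 below both controls, with a median of 0.15. BCL2L1, which encodes the survival protein BCL-XL, was at 10.07 and 9.75 against 10.37 and 10.99, and BCL2 at 5.06 and 5.18 against 5.44 and 5.93, both higher with PTK7-2 than with PTK7-1. Of 22 cytosolic ribosomal protein genes, 20 were lower, 8 below both controls, with a median of only -0.09. RPL3 was at 11.72 and 11.74 against 11.53 and 11.08. Interferon-stimulated genes, which long double-stranded RNA can induce, were 15 higher and 11 lower with 4 above and 2 below both controls and a median of 0.05. IFI6, which had the smallest unadjusted p among them, was at 8.80 and 8.51 against 9.27 and 9.29, above both controls with each PTK7 hairpin. IFIT1 was at 4.69 and 3.93 against 4.65 and 5.19, and MX1 at 3.67 and 3.85 against 3.68 and 3.54, so neither of these separated the groups.

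**Figure D3:**
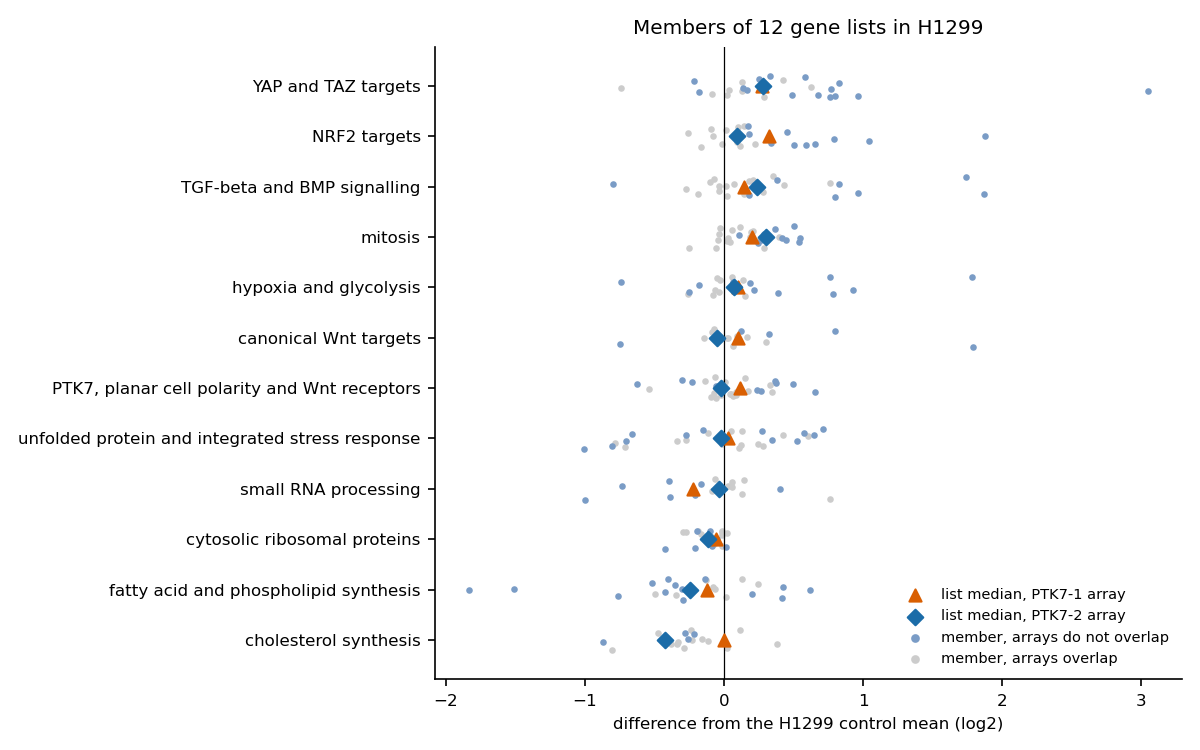
Small points are members of 12 gene lists, placed by the log2 difference between PTK7 and control hairpins in H1299 and shifted vertically at random, in blue where both PTK7 arrays lie beyond both control arrays and in grey where they overlap. Triangles and diamonds are the list medians with PTK7-1 and PTK7-2 alone. They nearly coincide for YAP and TAZ targets (0.27 and 0.28) and part for cholesterol synthesis (0.00 and -0.42).

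The 2 hairpins against PTK7 differed from each other by more than the 2 control hairpins did. Between the PTK7 arrays, 314 genes were at least 2-fold higher (1.71%) and 466 at least 2-fold lower (2.53%) with PTK7-1 than with PTK7-2. Between the control arrays, 124 were higher (0.674%) and 48 lower (0.261%) with GFP than with LUC. Against the mean of both controls, PTK7-1 had 83 genes at least 2-fold higher (0.451%) and 162 lower (0.880%), and PTK7-2 had 247 (1.34%) and 225 (1.22%). Each of these counts compares single arrays and has no replicate check, and the counts for PTK7-1 and PTK7-2 share the control arrays.

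**Figure D4:**
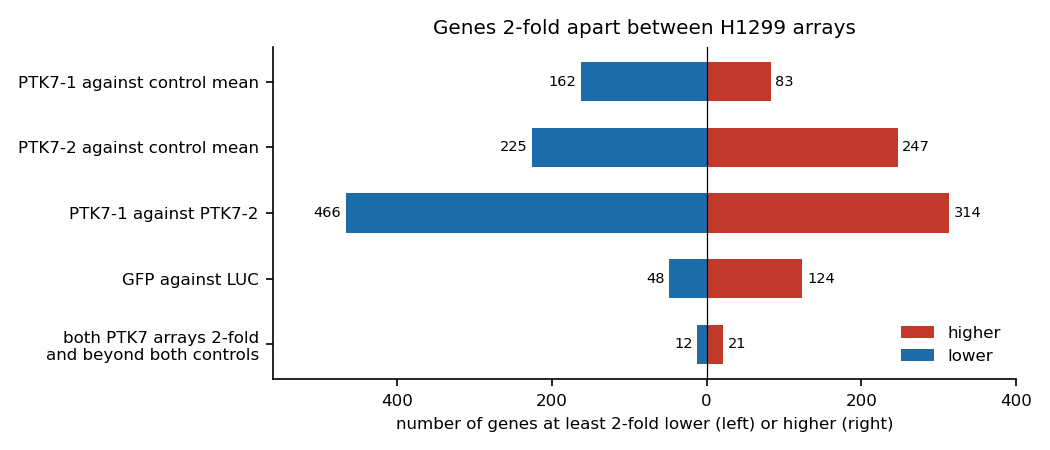
Bars give the number of genes at least 2-fold lower (blue, left) or higher (red, right) between H1299 arrays, out of 18404. The longest bars are those of PTK7-1 against PTK7-2, with 466 lower and 314 higher, and the shortest those of the genes that both PTK7 arrays share beyond both controls, with 12 and 21.

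Genes with the largest gap between the hairpins are named as values of single arrays. CPA4, a secreted carboxypeptidase, was at 4.86 and 6.26 with GFP and LUC, 3.91 with PTK7-1 and 8.03 with PTK7-2. PDCD1LG2, the PD-1 ligand PD-L2, was at 7.05 and 6.40, 4.91 and 8.56 in that order. In both, PTK7-1 lay below the controls and PTK7-2 above them. The same held for CPPED1, a phosphatase (5.65 and 5.57, then 4.30 and 7.65), for ARHGAP29 (4.60 and 3.73, then 3.43 and 6.45), and for TMEM71 (5.14 and 4.40, then 4.27 and 7.20). In the other direction SPP1, which encodes osteopontin, was at 5.45 and 4.11 with GFP and LUC, 8.41 with PTK7-1 and 4.55 with PTK7-2, so only PTK7-1 stood above both controls. MDM2, the ubiquitin ligase best known for p53, was at 9.70 and 9.72, 10.03 and 7.57. ELOA, an elongin subunit, was at 8.81 and 9.01, 9.35 and 6.89. CMPK1, a pyrimidine nucleotide kinase (9.33 and 9.42, 10.09, 7.65), and TM4SF18 (6.96 and 7.52, 7.55, 4.93) had the same pattern, with PTK7-2 well below both controls and PTK7-1 slightly above both.

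H2009 carries the same 4 hairpins on other arrays, so a difference that both lines share may come with the hairpins or with PTK7, and these cannot be told apart. In H2009, 4776 genes had both PTK7 arrays above both controls (26.0%) and 3486 below (18.9%). Of the 2864 genes above in H1299, 907 were above in H2009 too (31.7% of the H1299 genes and 19.0% of the H2009 genes), and 430 were below. Of the 2962 below in H1299, 833 were below in H2009 too (28.1% and 23.9%), and 612 were above. Among the 15 leading lower genes, 14 were lower in H2009 and 12 lay below both H2009 controls. Of the 15 leading higher genes, 11 were higher there and 7 lay above both controls. Of all 18404 genes, 10330 were higher and 8069 lower in H2009. The 15 were ranked with a spread fitted over the arrays of both lines, so the ranking is not independent of H2009. MBOAT1 (-1.39 ± 0.18), DSC2 (-1.45 ± 0.16), PIK3CB (-1.29 ± 0.23) and ANKRD1 (1.45 ± 0.34) were of the same sign and over 2-fold in both lines, while SMPD2 (-0.01 ± 0.17) and STK39 (0.03 ± 0.15) were near 0 in H2009.

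The difference between the lines passed the threshold for 0 genes (0%; limma interaction term, lowest adjusted p = 0.130), with 951 at an unadjusted p under 0.05. The lowest was that of OR7E19P. Next among genes higher in H1299 were ID2, PPP1R3C, which targets phosphatase 1 to glycogen, NAIP, an inflammasome sensor with near-identical copies beside it, and TMEFF2. PPP1R3C differed by 0.61 ± 0.17 in H1299 and -1.21 ± 0.17 in H2009, and NAIP by 0.62 ± 0.14 and -0.70 ± 0.14. Among genes lower in H1299, SNORD15A was 0.46 ± 0.29 in H2009. The lipase LIPG (-0.25 ± 0.14 and 1.07 ± 0.14), the metalloprotease ADAM8 (-0.17 ± 0.14 and 1.16 ± 0.14), the trypsinogen pseudogene PRSS3P2 (-0.24 ± 0.19 and 1.12 ± 0.19) and NATD1 (-0.54 ± 0.15 and 0.52 ± 0.15) were lower in H1299 and higher in H2009. For these 9 genes, OR7E19P left aside, the limma adjusted p of the difference between the lines was 0.848.

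**Figure D5:**
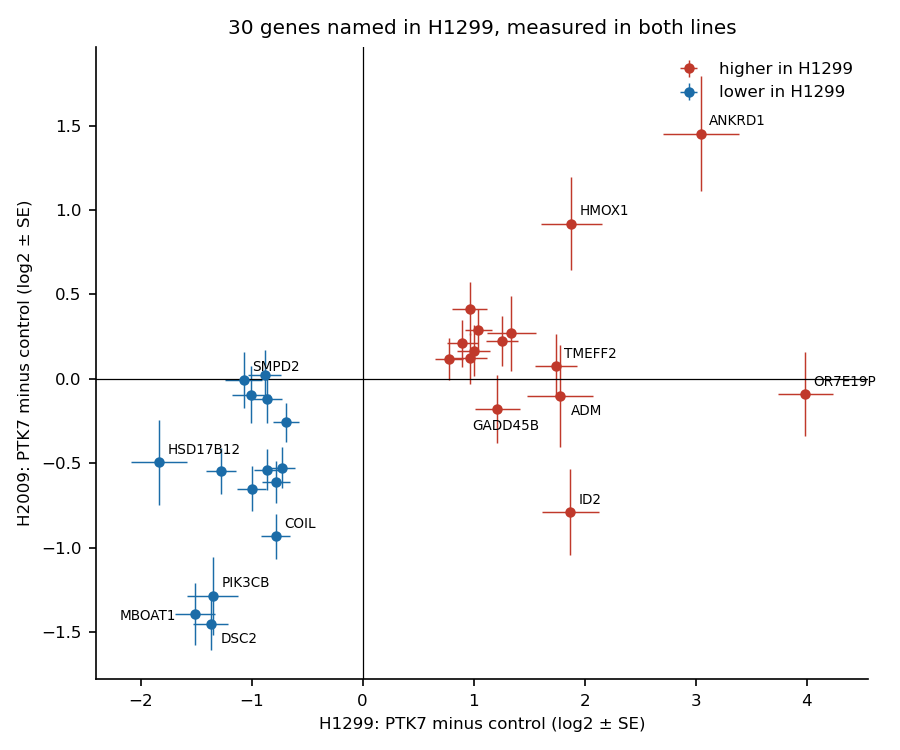
Each point is 1 of the 30 leading genes, with its log2 difference between PTK7 and control hairpins in H1299 on the x axis and in H2009 on the y axis, and bars of 1 standard error of the limma fit. Red points were chosen as higher and blue points as lower in H1299. OR7E19P lies at 3.99 in H1299 and -0.09 in H2009, ID2 lies below 0 in H2009, and 14 of the 15 blue points lie below 0 there.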

How the data were processed

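Total RNA from 8 samples, 1 per hairpin and line, was labelled with biotin and read on Affymetrix gene arrays. The authors deposited log2 expression values per probe set, and the submitters' processing notes name RMA and R 2.14.0; RMA subtracts background, normalizes between arrays and compresses differences of dim probe sets. Of 32321 probe sets, 19158 have a single symbol in the platform annotation, 1388 several and 11775 none listed, and gene IDs linked 19128 of the single symbols to RefSeq. The brightest probe set was kept for the 637 genes with several, which left 18404 genes. No detection calls were used, no batch is labelled, and the small number of arrays limits the precision.

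Group means of all 8 arrays were fitted with limma 3.58.1 in R 4.3.3, so that both lines share an estimate of the spread, with moderated variances, and p-values were adjusted over all genes by Benjamini-Hochberg at 0.05. Errors after ± are standard errors of this fit. The code was tested on simulated data. Both lines received the same hairpins per the labels, and same-hairpin arrays deviated together across the lines (r = 0.230 for the control and 0.407 for the PTK7 hairpins), so a second fit blocked on the hairpin. The members and the 37 gene and marker lists were chosen with earlier results of these data known, and list counts are descriptions. Genes were named by rule: PTK7; genes past the threshold; the 15 smallest unadjusted p and 5 largest differences per direction among genes whose arrays do not overlap; the 5 largest differences per direction between the PTK7 hairpins; 5 per direction for the difference between the lines; and up to 5 members per list by p with its defining members. Promoter windows came from the RefSeq table on GRCh38.p14, and hairpin sequences were not used here. Alternatives covered normalization, filtering, probe set choice, prior, block, margin, fold and leaving out each array. Figures were drawn with matplotlib 3.10.9.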

Additional observations from a re-analysis of the deposited data

Results flagged for a closer look

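For 21 of the 129 genes whose difference is reported, both PTK7 arrays lay beyond both controls on 1 side in H1299 and on the opposite side in H2009. The difference between the lines was tested as the limma interaction term, and none of the 21 passed, with adjusted p-values from 0.848 to 0.922. Over all genes, both lines gave opposite non-overlapping arrays for 430 genes above and 612 below in H1299. Among the 21, ID2, PPP1R3C, NAIP, SNORD15A, LIPG, ADAM8, PRSS3P2 and NATD1 met the naming rule of a small p between the lines. The count of 21 is thus partly set by how the 129 genes were chosen. It cannot be compared with the counts over all genes.

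Values are the PTK7 minus control difference in H1299 less that in H2009, on the log2 scale. Among genes higher in H1299, it was 2.66 for ID2 and 1.15 for ID1, 1.81 for PPP1R3C, 1.39 for GADD45B, 1.32 for NAIP and 1.11 for PFKFB3. The YAP and TAZ targets TGFB2 and CCN2 gave 1.37 and 1.12. PRICKLE1 gave 0.91, GCLC 0.85, PIK3R1 0.71 and PLK1 0.50. ID2 was at 7.72 and 8.36 with GFP and LUC in H2009 and at 7.32 and 7.19 with PTK7-1 and PTK7-2, so the order of the groups was turned.

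Among genes lower in H1299, it was -1.90 for SNORD15A, -1.36 for PRSS3P2, -1.33 for ADAM8, -1.31 for LIPG, -1.05 for NATD1 and -1.02 for FHL2. SESN2 and PSAT1 gave -1.15 and -0.95, and LPCAT3 gave -0.72. ADAM8 was at 6.75 and 6.45 with GFP and LUC in H2009 and 7.68 and 7.83 with PTK7-1 and PTK7-2, where its H1299 values were 5.47 and 5.33 and 5.20 and 5.26.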

How the results depend on the processing

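The count of 1 gene past the threshold was 1 with quantile normalization, median centring, averaged probe sets, a fit of every probe set, hairpin as a random effect, a trended or a robust prior, and a threshold of 0.10. It was 0 with cyclic loess, without the dimmest 40% of genes, and with the H1299 arrays alone, and 0 to 8 with 1 array left out. OR7E19P itself is among the dimmest 40%. With the hairpin as a replicate block, which uses the pairing of hairpins across the lines, 4 genes passed (OR7E19P, ANKRD1, HSD17B12 and STYX), and the PTK7 difference stayed -0.30 (limma adjusted p = 0.495). PTK7 ran from -0.45 to -0.15 with 1 H1299 array left out. The difference between the lines passed for 1 gene with the block, with hairpin as a random effect and with a trended prior, and for 0 to 3 with 1 array left out.

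Of the 5826 genes whose arrays did not overlap, 947 had a gap of at least 0.25 and 204 of at least 0.5. There were 3715 without the dimmest 40%, 10235 over every probe set, and 11002 to 13505 with 1 H1299 array left out, since 3 arrays separate more easily than 4. The 245 genes 2-fold from the controls with PTK7-1 became 387 against GFP alone, and 1215 at 1.5-fold, and the 472 with PTK7-2 became 1968 at 1.5-fold.

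With 1 H1299 array left out, 11 small differences, none past the threshold, turned sign. Their ranges were -0.058 to 0.18 for AGO2, -0.042 to 0.14 for ATF4 (-0.025 with the mean of probe sets), -0.33 to 0.27 for BNIP3, -0.11 to 0.33 for CDKN1A, -0.15 to 0.20 for DROSHA, -0.21 to 0.081 for LGR5, -0.42 to 0.13 for MYC, -0.22 to 0.19 for SLC7A11, -0.28 to 0.0078 for VANGL2, -0.28 to 0.13 for VEGFA and -0.029 to 0.20 for WNT5A. No other difference of the 129 genes turned sign under the alternatives run. The 129 leave out some genes given above as array values, whose PTK7 arrays lay on opposite sides of the control mean. Leaving out 1 PTK7 array can turn the sign of these too. With PTK7-1 and PTK7-2, MDM2 was 0.32 and -2.14 from the control mean, MSMO1 0.17 and -1.79, and NQO1 0.60 and -0.16. The cause of these shifts was not tested. With 2 arrays a group and 1 probe set for most genes, small differences of dim genes are not resolved.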

Other observations

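Several other gene groups were read in H1299. Of 15 measured genes of the JNK and AP-1 pathway, 10 were higher and 5 lower with PTK7 hairpins, 6 lay above and 1 below both controls (15.6% and 16.1% of all genes), and the median difference was 0.13. MAP3K1, a kinase upstream of JNK, was at 7.27 and 7.01 with GFP and LUC and 7.78 and 7.78 with PTK7-1 and PTK7-2. JUN was at 8.82 and 8.92 against 9.05 and 9.42. Of 19 readouts of ERK signalling, 9 were higher and 10 lower, and the feedback inhibitors SPRED1 (7.70 and 8.14 against 8.73 and 8.35) and SPRY2 (9.98 and 9.42 against 8.99 and 9.30) lay on opposite sides of their controls. Of 17 genes of PI3-kinase, AKT and mTOR, 7 were higher and 10 lower. With PIK3CB low, the regulatory subunit PIK3R1 was at 8.27 and 8.03 against 8.56 and 8.88, and the kinase MTOR at 9.41 and 9.70 against 9.21 and 9.12. Neither MAP3K1, JUN, SPRED1, SPRY2, PIK3R1 nor MTOR passed the adjusted threshold (limma).

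Among 20 p53 targets, 10 were higher and 10 lower, with a median of -0.03. CDKN1A, the p21 inhibitor, differed by 0.11 ± 0.17, and TP53I3, a quinone oxidoreductase, was at 6.91 and 6.77 against 6.12 and 6.26. Of 24 actin regulators 15 were higher and 9 lower, and of 18 genes of epithelial to mesenchymal transition 12 and 6, with medians of 0.07 and 0.10. FHL2, a LIM domain coactivator, was at 8.35 and 8.36 against 7.51 and 8.03, and CDH2, N-cadherin, at 9.22 and 9.08 against 9.41 and 9.51. RAC1 was split by hairpin, at 6.71 and 5.82 with GFP and LUC, 5.12 with PTK7-1 and 7.58 with PTK7-2. Of 25 genes of oxidative phosphorylation, 11 were higher and 14 lower, with a median of -0.02. The 2 hairpins parted, with a list median of -0.16 with PTK7-1 and 0.15 with PTK7-2. COX8C, a testis-enriched subunit of cytochrome c oxidase, was at 3.88 and 4.01 with GFP and LUC, 4.23 with PTK7-1 and 6.75 with PTK7-2. The transporter SLCO1B3 had a like order, at 3.13 and 3.21, 3.34 and 5.73, so that both were far above the controls with PTK7-2 alone. Over both PTK7 arrays COX8C differed by 1.54 ± 0.68 (limma adjusted p = 0.696). With PTK7-1 left out the differences of COX8C and SLCO1B3 were 2.80 and 2.55, which rest on the PTK7-2 array alone. Of 20 NF-kB targets and cytokines 11 were higher and 9 lower, of 22 metalloproteases and inhibitors 14 and 8, of 17 junction genes 8 and 9, and of 14 solute carriers 7 and 7, with medians of 0.03, 0.02, -0.0038 and 0.04.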
